A study of Mus musculus with 11 samples.

Results

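Microexons are cassette exons so short that they add only a few amino acids to a protein. In neurons many of them are included through SRRM4, a serine/arginine-rich protein that acts next to the 3′ splice site, and the codons they add often lie at the edge of protein interaction domains of cytoskeletal, endocytic and synaptic proteins. FUBP1 and KHSRP (also called FUBP2) are related proteins with KH domains that bind single-stranded nucleic acid. KHSRP was described both as a splicing factor for a neuronal exon and as a factor in decay of AU-rich mRNAs, and RBM38 is an RNA-recognition-motif protein known as a p53 target.

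The exons described here are the microexons of 16 to 27 nt of the mouse. They are the rows of the deposited splicing table whose event number marks an exon and whose length is 16 to 27 nt, with at least 10 inclusion plus exclusion reads in every library. Of 1159 exons of these lengths, 543 met the read minimum, out of 220976 splicing events of all kinds that met it. They lie at 540 distinct positions, because 3 exons (of Senp6, Pkd1 and Rrp1b) are listed under 2 event numbers, and in 504 host genes.

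The cells were Neuro-2A (N2A), a mouse neuroblastoma line, harvested 48 hours after transfection with a pool of siRNAs. The control group, called siNT here, received a non-targeting pool and has 3 libraries (A, B and C). The other 4 groups have 2 libraries each (A and B) and received siRNAs against Fubp1, against Khsrp, against both Khsrp and Fubp1 (called the double knockdown), or against Rbm38. All groups share the line and the transfection, knockdown was transient, and no label says whether the libraries of a group came from separate cultures, so p-values measure the spread between these libraries only. For checks, the library numbers in the labels were split here into 2 library sets. The first holds 1 to 4 (siNT A and B, Fubp1 A and B) and the second 8 to 27 (all others, siNT C included). No label calls these sets batches, and the second has gaps of its own (8, 9, 11, 20, 21, 23 and 27). Only siNT has libraries in both, so Khsrp, double and Rbm38 knockdown have siNT C as their only control of the same set.

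In the authors' deposited table of gene levels, which gives 1 RPKM (reads per kilobase of transcript, scaled to library size) per group, Fubp1 went from 180.07 in siNT to 27.89 after its own knockdown and 19.82 in the double. Khsrp went from 47.03 to 8.06 and 6.77, and Rbm38 from 34.47 to 4.03. Khsrp was also lower after Rbm38 knockdown, at 33.8 RPKM (the authors' FDR 0.0243). Hand2, a sympathoadrenal transcription factor that marks this line, stood at 227.38 RPKM in siNT. Of the glial markers Olig2 and Sox10 were listed at 0 in every group, and the fibroblast collagens Col1a1 and Col1a2 and the leukocyte genes Ptprc, Aif1 and Csf1r were at or below 0.3 RPKM. Gfap, a glial filament gene, was at 0.33 RPKM in siNT, 3.3 after Khsrp knockdown and 2.14 in the double, and whether this bears on any exon below was not tested.

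Of the 543 microexons, 427 were matched to an exon of GENCODE vM21 (build GRCm38) by gene, length and the length of a flanking intron, and 381 of these lie in annotated coding sequence. The sequences below were read from the GENCODE transcripts and carry the main results. The first set shows exons of equal length in paralogous genes, aligned without gaps, with capitals at the positions where the paralogs differ. The identical positions are 17 of 24 in the Clasp pair, 21 of 24 in the Cpeb pair, 16 of 18 in Dst and Macf1, 14 of 18 in the Fry pair and 16 of 21 in the Eif4g pair.
Clasp1: ctGttaggagacGCCAggaGCaag
Clasp2: ctCttaggagacATACggaCTaag
Cpeb2: caaggaGttatgggcgaagACgag
Cpeb4: caaggaCttatgggcgaagGAgag
Dst: ttcttcctGggAaatcag
Macf1: ttcttcctCggCaatcag
Fry: caaatggAaTCtctTgca
Fryl: caaatggGaATtctAgca
Eif4g1: ggaggattcagGTcTCtGcag
Eif4g3: ggaggattcagACcCAtCcag

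On GRCm38 these exons are at chr1:118541675-118541698 (Clasp1, plus strand), chr9:113878750-113878773 (Clasp2, plus), chr5:43268869-43268892 (Cpeb2, plus) and chr11:31918801-31918824 (Cpeb4, plus). Dst has chr1:34296742-34296759 (plus), Macf1 chr4:123364057-123364074 (minus), Fry chr5:150488961-150488978 (plus) and Fryl chr5:73024771-73024788 (minus). Eif4g1 has chr16:20674786-20674806 (plus) and Eif4g3 chr4:138095909-138095929 (plus). All 10 are annotated as coding.

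The second set holds exons that moved most, that moved after Rbm38 knockdown, or whose double knockdown departed from the sum of the single ones, all in lower case.
Senp6: caatcaggaccgaaaagaaag
Synj1: tttctgaacagacattacagtcag
Picalm: aatggcatgcattttccacaatac
Ckap5: aattatgtatcgcacatataggat
Abi2: tggttgcttagatttaag
Nckap1: caaggacaagtttggaag
Ptk2, 18 nt: atgaaattagtggggacg
Ptk2, 21 nt: aaagctatggaatagatgaag
Odz3, 21 nt: aaataaagattttagacatag
Odz3, 27 nt: ctcactatttggataagatagttaaag
Tmem184b: tgctgacgtacggcccatacg

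The Senp6 exon is at chr9:80098886-80098906 (plus strand), that of Synj1 at chr16:90971564-90971587 (minus), that of Picalm at chr7:90194273-90194296 (plus), that of Ckap5 at chr2:91599604-91599627 (plus) and that of Abi2 at chr1:60438942-60438959 (plus). Nckap1 has chr2:80571213-80571230 (minus), Tmem184b chr15:79363658-79363678 (minus), and Ptk2 has chr15:73282218-73282235 and chr15:73275621-73275641 (both minus). The exons of Odz3, the older name of Tenm3, are at chr8:48287133-48287153 and chr8:48313238-48313264 (both minus). The exons of Ckap5 and Ptk2 were matched in transcripts where they are not annotated as coding sequence, and the others are coding.

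Inclusion is given as PSI, the percentage of transcripts that contain the exon, which the authors computed per library from reads joining the exon to its neighbours against reads joining the neighbours to each other. In siNT, 261 microexons (48.1%) had a mean PSI over 90, 154 (28.4%) a mean under 10, and 128 (23.6%) lay between. The lengths 27, 24, 21 and 18 nt were the commonest, with 110, 94, 69 and 61 exons. Lengths that are multiples of 3, which leave a reading frame intact, made up 334 of the 543 (61.5%). They made up 107 of the 128 exons between 10 and 90 (83.6%), 64.3% of those under 10 and 49% of those over 90. At the length limits, 110 exons had 27 nt and a median siNT PSI of 86.8, while 55 exons of 28 nt had a median of 99.4. At the short end 8 exons had 16 nt and a median of 3.6, and 67 exons of 15 nt had a median of 5.3.

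**Figure D1:**
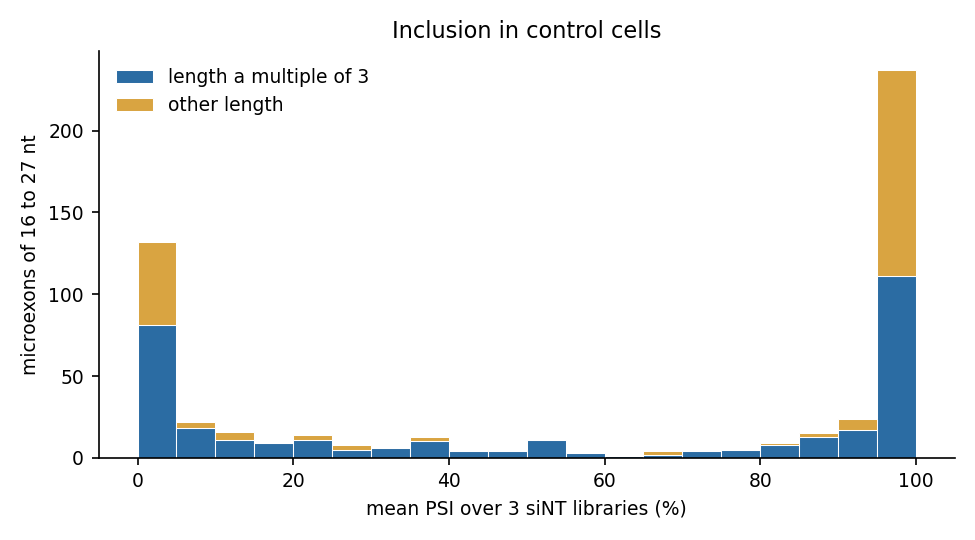
Mean PSI over the 3 siNT libraries (x axis, percent, bins of 5 points) of the 543 microexons of 16 to 27 nt (y axis, number of exons), stacked by whether the length is a multiple of 3. Most exons sit at either end, and exons between 10 and 90 are mostly multiples of 3 (107 of 128).

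Some of the most deeply read exons of the gene lists used below were near either end of the scale, and others (such as those of Dock4, Picalm, Odz3, Ptk2, Eif4g1 and Ncor1) lay between and are described with the knockdowns. A 24 nt exon of Flna, an actin crosslinker, was at 93.0% ± 0.6 (SD, n = 3) in siNT, and a 24 nt exon of Phf5a, a component of the spliceosome, at 99.9% ± 0.1. A 27 nt exon of Git1, a GTPase-activating protein of Arf, was at 92.3% ± 1.8, a 24 nt exon of Rapgef2, a Rap activator, at 98.1% ± 0.3, and a 22 nt exon of Mapk1ip1l at 100.0% ± 0.1. Exons of Kif5c (a kinesin heavy chain), Dync1i2 (a dynein chain), Snx2 (a sorting nexin) and Ppp3cb (a calcineurin subunit) were at or below 0.2%, a 21 nt exon of Cltc, the clathrin heavy chain, was at 5.4% ± 1.2, and a 21 nt exon of Dlg1, a synaptic scaffold, at 13.3% ± 3.6.

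Among exons with a siNT mean of 10 to 90, the SD over the 3 libraries had a median of 3.6 points. A few exons varied far more between control libraries. Src, a tyrosine kinase, had an 18 nt exon at 31.8 and 23.8% in 2 siNT libraries but 5.0% in siNT C. A 23 nt exon of Phf21a, a subunit of a histone demethylase complex, ranged from 47.5% to 78.3% over the siNT libraries. Nrg1, a ligand of ErbB receptors, ranged from 17.8 to 56.3% and Tcf7l2, a Wnt transcription factor, from 15.6 to 42.4%. Nrg1 and Tcf7l2 had as few as 15 and 10 reads in a library, and none of these 4 exons is read further.

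For tests the mean PSI over all libraries had to lie between 1 and 99, which left 298 microexons in 283 genes, with 76 below and 169 above. An exon below 1 or above 99 in siNT enters only if some group moves it inward. Counts over these 298 are therefore not counts over all microexons. The log2 odds of inclusion were fitted with limma over all 60137 tested events of any kind, with more weight on values that rest on more reads. An exon is called changed where the adjusted p was under 0.05 over all those events and the mean PSI differed by at least 10 points.

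The median PSI of the 298 tested microexons was 44.0 to 48.0 over the 3 siNT libraries. It was 42.2 and 40.5 in the Fubp1 knockdown libraries, 38.4 and 33.1 in the Khsrp libraries, 28.3 and 28.8 in the double and 56.8 and 56.3 after Rbm38 knockdown. No knockdown library overlapped the siNT range, and only the Rbm38 libraries lay above it. In the 79 exons with a siNT mean of 20 to 80 the library medians were 38.7 to 42.9 in siNT, 24.6 in both double libraries and at least 49.9 in both Rbm38 libraries. There the Fubp1 libraries at 38.1 and 37.4 were just under the lowest siNT library.

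Exon by exon, the median difference from siNT over the 298 was -0.85 points after Fubp1 knockdown, -1.12 after Khsrp knockdown, -2.12 in the double and 1.73 after Rbm38 knockdown. Over all 60137 tested events the same medians were -0.33, -0.09, -0.58 and -0.08, and over exons of 28 to 60 nt they were -0.24, 0.0, -0.22 and 0.3. Microexons of 3 to 15 nt had -0.78, -1.37, -2.07 and 2.23. The 2 microexon classes thus had medians of the same sign and similar size in each knockdown. The 4 knockdowns share their siNT libraries.

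Fubp1 knockdown changed 29 of the 298 microexons (9.73%), against 1.16% of all tested events, with 10 higher (background 0.303%) and 19 lower (0.858%). Khsrp knockdown changed 9 (3.02%, background 0.186%), with 1 higher (0.0532%) and 8 lower (0.133%). The double knockdown changed 74 at 73 positions (24.8%, background 6.98%), with 6 higher (1.8%) and 68 lower (5.18%). Rbm38 knockdown changed 17 (5.7%, background 0.358%), all 17 higher (0.249%) and 0 lower (0.108%), with 6 lower at an unadjusted p under 0.05 in limma and 76 higher. In each knockdown the microexons' share exceeded that of all events, which include retained introns and alternative splice sites. In the order Fubp1, Khsrp, double and Rbm38, the shares called were 9.44, 3.89, 27.2 and 8.89% of microexons of 3 to 15 nt. They were 3.38, 0.855, 15.1 and 1.59% of exons of 28 to 60 nt. Of exons over 60 nt they were 2.44, 0.299, 15.2 and 0.528%. The levels differed as well, with 26.5% of the tested microexons at 20 to 80 in siNT against 9.47% of all tested events. Within that range the shares called were 27.8% against 6.39% (Fubp1), 10.1% against 1.4% (Khsrp), 49.4% against 21.2% (double) and 16.5% against 2.72% (Rbm38). There exons of 28 to 60 nt had 14.2, 4.72, 34.9 and 7.09%, and microexons of 3 to 15 nt had 22.7, 11.4, 56.8 and 27.3%.

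**Figure D2:**
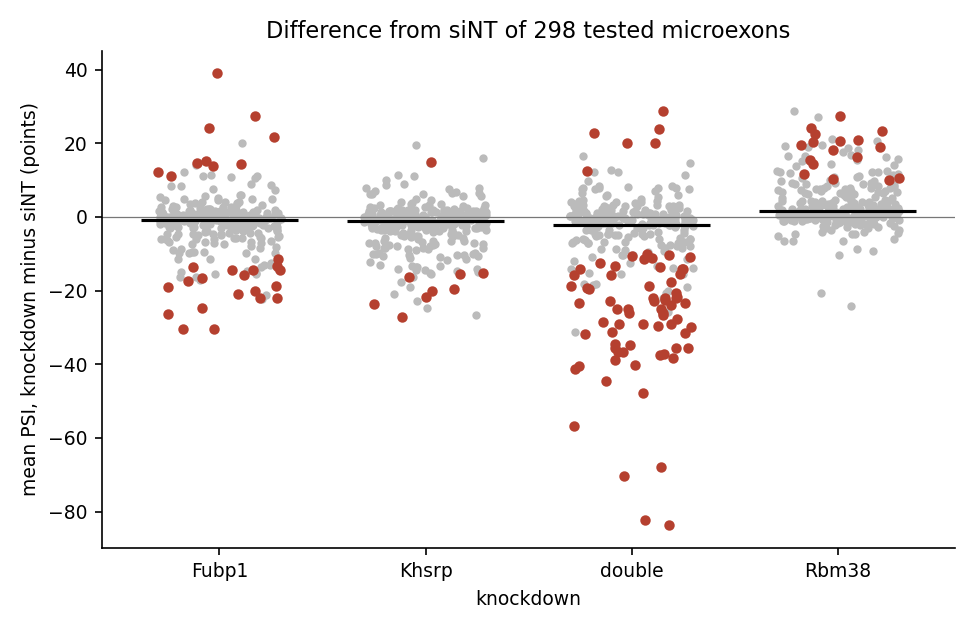
Difference in mean PSI from siNT (y axis, points) of each of the 298 tested microexons in the 4 knockdowns (x axis). Red points are called changed, grey points are not, and the black line is the median. The double knockdown has 68 called exons below 0 and 6 above, and Rbm38 knockdown has all 17 above 0.

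The share without overlap between the knockdown's and siNT's libraries was 43.6% of the 298 after Fubp1 knockdown (27.9% of all events), 37.2% after Khsrp knockdown (23.2%), 61.1% in the double (40.2%) and 40.9% after Rbm38 knockdown (23.6%). Of the 122 exons without overlap after Rbm38 knockdown, 104 were higher. Of the 182 in the double, 146 were lower. This measure was not split by direction over all events, so these counts have no background and are not read further. The authors' deposited table also marks changed events, 54, 36, 95 and 53 of the 298 after Fubp1, Khsrp, double and Rbm38 knockdown. Among them are 28 of the 29 Fubp1 calls, all 9 Khsrp calls, all 74 double calls and all 17 Rbm38 calls.

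**Figure D3:**
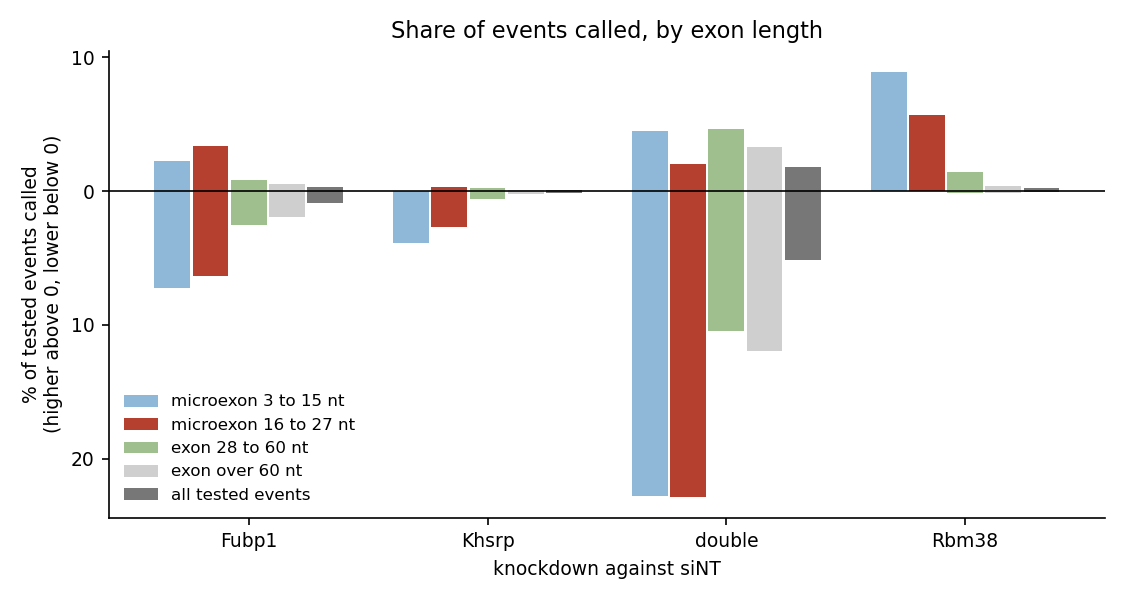
Percentage of tested events called higher (above 0) and lower (below 0) in each knockdown against siNT (x axis), by exon length class. For microexons of 16 to 27 nt the bars below 0 reach 68 of 298 in the double, and after Rbm38 knockdown only bars above 0 are present for both microexon classes.

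These counts depend on how libraries are weighted and grouped. Without weights limma called 0 exons after Fubp1, Khsrp or Rbm38 knockdown (67, 65 and 71 at an unadjusted p under 0.05) and 77 in the double. With a term for the library sets the calls were 28, 3, 58 and 5. Leaving out siNT A, Khsrp A or Khsrp B gave 5, 2 or 4 Khsrp calls, and leaving out Rbm38 A or B gave 10 or 9 Rbm38 calls. For Khsrp, double and Rbm38 knockdown against siNT, the library-set term leaves siNT C as the only control. A call can end with this term without a smaller difference, as the Rbm38 rise of Tmem184b did (20.5 and 24.3 points). Every called exon had the same direction against the siNT libraries of its own set, again siNT C alone except for Fubp1 knockdown. There 29, 9, 70 and 14 of them still differed by 10 points or more.

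Several called exons lie in genes of microtubule proteins. CLASP2, which binds growing microtubule ends, has a 24 nt exon (the one shown above) at 80.7, 82.6 and 79.8% in siNT and at 7.8 and 13.6% in the double knockdown. It fell by 70.3 points there (limma adjusted p 4.87e-05). The single knockdowns were lower than siNT in every library, at 69.3 and 50.3% (Fubp1) and 67.0 and 57.2% (Khsrp), but did not pass the test (adjusted p 0.058 and 0.158), and Rbm38 knockdown had 89.4 and 89.5%. A second 24 nt exon of Clasp2 was at 48.6, 45.2 and 49.7% in siNT, 19.97 and 22.9% after Fubp1 knockdown, 10.3 and 16.6% in the double and 79.5 and 71.1% after Rbm38 knockdown. That exon fell by 26.4 points in Fubp1 knockdown and by 34.4 in the double and rose by 27.5 points after Rbm38 knockdown (limma adjusted p 0.00377, 0.00275 and 0.0102), the rise being 25.7 points with a library-set term (adjusted p 0.269). The paralogous exon of Clasp1 went from 79.4% ± 1.9 (SD, n = 3) to 49.6% in both double libraries, a fall of 29.8 points (limma adjusted p 1.96e-05).

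Ckap5 encodes a microtubule polymerase, and its 24 nt exon moved in all 4 knockdowns. It was at 56.5, 48.3 and 47.2% in siNT, 30.3 and 30.9% after Fubp1 knockdown, 37.6 and 32.7% after Khsrp knockdown, 11.6 and 9.2% in the double and 74.0 and 75.5% after Rbm38 knockdown. No group overlapped siNT. The differences were -20.1, -15.5, -40.3 and 24.1 points (limma adjusted p 0.000496, 0.0327, 4.07e-07 and 0.000172), the Khsrp one ending with a library-set term (-12.0 points, adjusted p 0.554).

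The giant linkers of actin and microtubules, Dst and Macf1, carry 18 nt exons that differ at 2 positions. The Dst exon was at 89.1, 88.2 and 91.0% in siNT, 64.2 and 70.7% after Fubp1 knockdown and 53.2 and 49.3% in the double, so that it fell by 22 and 38.2 points (limma adjusted p 0.0134 and 0.000185). The Macf1 exon was at 95.4, 94.9 and 95.8% in siNT, 90.3 and 92.8% after Fubp1 knockdown and 65.0 and 63.4% in the double, a fall of 31.2 points in the double (limma adjusted p 6.09e-05), with an adjusted p of 0.398 after Fubp1 knockdown. A 24 nt exon of Ank2, an ankyrin that ties spectrin to membranes, fell from 98.4% ± 1.4 to 69.4% ± 7.7 in the double (limma adjusted p 0.000333). In its paralog Ank3 an exon of 27 nt rose from 9.7% ± 1.5 to 19.9% ± 0.1 after Rbm38 knockdown (limma adjusted p 0.033), a rise of 8.6 points with a library-set term (adjusted p 0.644).

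ABI2 and NCKAP1 are subunits of the WAVE complex, which starts branched actin, and each gene has an 18 nt microexon. The Abi2 exon was at 18.2, 19.1 and 14.6% in siNT, 43.4 and 45.7% after Fubp1 knockdown, 16.8 and 9.7% after Khsrp knockdown and 5.0 and 3.0% in the double. It rose by 27.3 points after Fubp1 knockdown (limma adjusted p 0.000523) and fell by 13.3 in the double (0.00719). The Nckap1 exon was at 80.7, 83.3 and 79.1% in siNT and 80.9 and 80.8% after Fubp1 knockdown, inside the siNT range. It was at 66.2 and 65.2% after Khsrp knockdown and 39.9 and 41.0% in the double, falls of 15.3 and 40.5 points (limma adjusted p 0.00375 and 1.28e-07), and the Khsrp call ended with a library-set term (-13.4 points, adjusted p 0.272). A 27 nt exon of Daam1, a formin that elongates actin filaments, fell from 65.9% ± 4.6 to 30.4% ± 0.3 in the double.

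Dynactin, the cofactor of dynein, had 2 members among the called exons. A 21 nt exon of Dctn1 was at 7.8, 9.2 and 14.7% in siNT and 25.3 and 19.1% after Rbm38 knockdown, a rise of 11.6 points (limma adjusted p 0.0379) that shrank to 7.5 points with a library-set term (adjusted p 0.755). A 21 nt exon of Dctn4 was at 53.6, 56.6 and 50.2% in siNT, 67.2 and 68.3% after Fubp1 knockdown and 67.5 and 69.1% after Khsrp knockdown. It rose by 14.3 and 14.8 points (limma adjusted p 0.00689 and 0.0353), the Khsrp rise being 18.1 points with a library-set term (adjusted p 0.092), and was the only called rise among the Khsrp results. In the double it was at 56.7 and 51.8%, within 0.8 points of siNT.

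Of the 27 tested exons in the list of cytoskeletal and motor genes, the double knockdown lowered 11 and raised 0, with a median difference of -8.7 points. Fubp1 knockdown raised 2 and lowered 2, Khsrp knockdown raised 1 and Rbm38 knockdown raised 3, with medians of -0.7, -2.0 and 3.9 points. For this and the other lists, the counts over all 298 tested microexons serve as a comparison. The double lowered 68 of them, Khsrp knockdown lowered 8 and Rbm38 knockdown raised 17. Fubp1 knockdown raised 10 and lowered 19, and the medians were those given above. Of the 298, 186 were in no list, and the double lowered 33 and raised 6 of those.

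Other called exons lie in genes of clathrin-coated vesicles and membrane curvature. Synaptojanin 1 (Synj1), a phosphoinositide phosphatase that helps strip clathrin from vesicles, has a 24 nt exon at 78.2, 76.9 and 74.4% in siNT. It was at 55.7 and 55.6% after Fubp1 knockdown, 52.6 and 57.3% after Khsrp knockdown and 9.4 and 7.5% in the double. It fell by 20.8, 21.6 and 68.0 points (limma adjusted p 0.028, 0.0478 and 2.05e-05), and the Khsrp call ended with a library-set term (-19.5 points, adjusted p 0.605). After Rbm38 knockdown it was at 92.0 and 98.6%, above siNT but short of the threshold (adjusted p 0.0528).

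PICALM recruits clathrin and its adaptors, and its 24 nt exon had at least 967 reads in every library. It was at 39.8, 36.8 and 36.3% in siNT, 23.1 and 18.9% after Fubp1 knockdown, 21.5 and 21.3% after Khsrp knockdown, 8.9 and 8.1% in the double and 51.6 and 54.8% after Rbm38 knockdown. The differences of -16.6, -16.2, -29.1 and 15.6 points all passed (limma adjusted p 8.91e-06, 0.000286, 1.55e-07 and 0.000363), and all 4 held with a library-set term. The 2 single knockdowns were close, with means of 21% ± 3.0 and 21.4% ± 0.2 (SD, n = 2).

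Endophilin B1 (Sh3glb1), which bends membranes, has a 24 nt exon at 42.9, 38.2 and 36.1% in siNT that was at 23.3 and 17.3% after Fubp1 knockdown, 20.5 and 18.5% after Khsrp knockdown and 1.4 and 1.9% in the double. It fell by 18.8, 19.5 and 37.4 points (limma adjusted p 0.000578, 0.00191 and 4.37e-06), and the Khsrp call ended with a library-set term (-16.6 points, adjusted p 0.0644). Its host is on the authors' list of changed genes after Fubp1 knockdown, at 34.02 RPKM against 64.35 in siNT. A 27 nt exon of the sorting nexin Snx14 went from 72.4% ± 7.9 to 47.6% ± 2.7 after Fubp1 knockdown and 15.8% ± 3.8 in the double, falls of 24.8 and 56.7 points (limma adjusted p 0.0063 and 3.33e-05). An 18 nt exon of 2410002O22Rik, the older name of the TRAPP-complex gene Trappc13, was at 54.2, 51.3 and 50.8% in siNT. Khsrp knockdown had 32.8 and 31.0% and Rbm38 knockdown 76.3 and 74.7%, a fall of 20.2 and a rise of 23.4 points (limma adjusted p 0.000299 and 9.83e-05). It was at 62.8 and 56% after Fubp1 knockdown, which did not pass (adjusted p 0.105), and fell by 24.9 points in the double.

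Exons of trafficking genes also moved after Fubp1 knockdown. Ppfia1 encodes liprin-alpha-1, a scaffold of focal adhesions and presynaptic sites, and its 27 nt exon was at 28.1, 28.9 and 13.0% in siNT and 60.7 and 63.8% after Fubp1 knockdown, a rise of 39.0 points (limma adjusted p 5.72e-05). In the double it was at 34.6 and 45%, lower than after Fubp1 knockdown alone by 22.5 points (adjusted p 0.00449). A 27 nt exon of Gripap1, a protein of recycling endosomes, was at 75.4, 85.5 and 84.2% in siNT and 54.9 and 47.8% after Fubp1 knockdown, a fall of 30.4 points (limma adjusted p 0.00038). In the double it was back at 75.9 and 77.8%, 25.5 points above Fubp1 knockdown (adjusted p 0.00414).

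The list of membrane-traffic genes holds 21 tested exons, of which Fubp1 knockdown raised 1 and lowered 4, Khsrp knockdown lowered 4, the double lowered 8 and Rbm38 knockdown raised 2. The medians were -1.5, -3.4, -7.6 and 4.0 points. The list of GTPase regulators had 11 tested exons and 1 call each in Fubp1 and double knockdown. Both are the 27 nt exon of Dock4, a Rac activator, at 76.8, 71.4 and 74.1% in siNT and 41.5 and 33.4% in the double. It fell by 36.7 points there (limma adjusted p 0.000428) and by 14.4 after Fubp1 knockdown (0.0477, and again 14.4 points with 0.0673 under a library-set term).

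**Figure D4:**
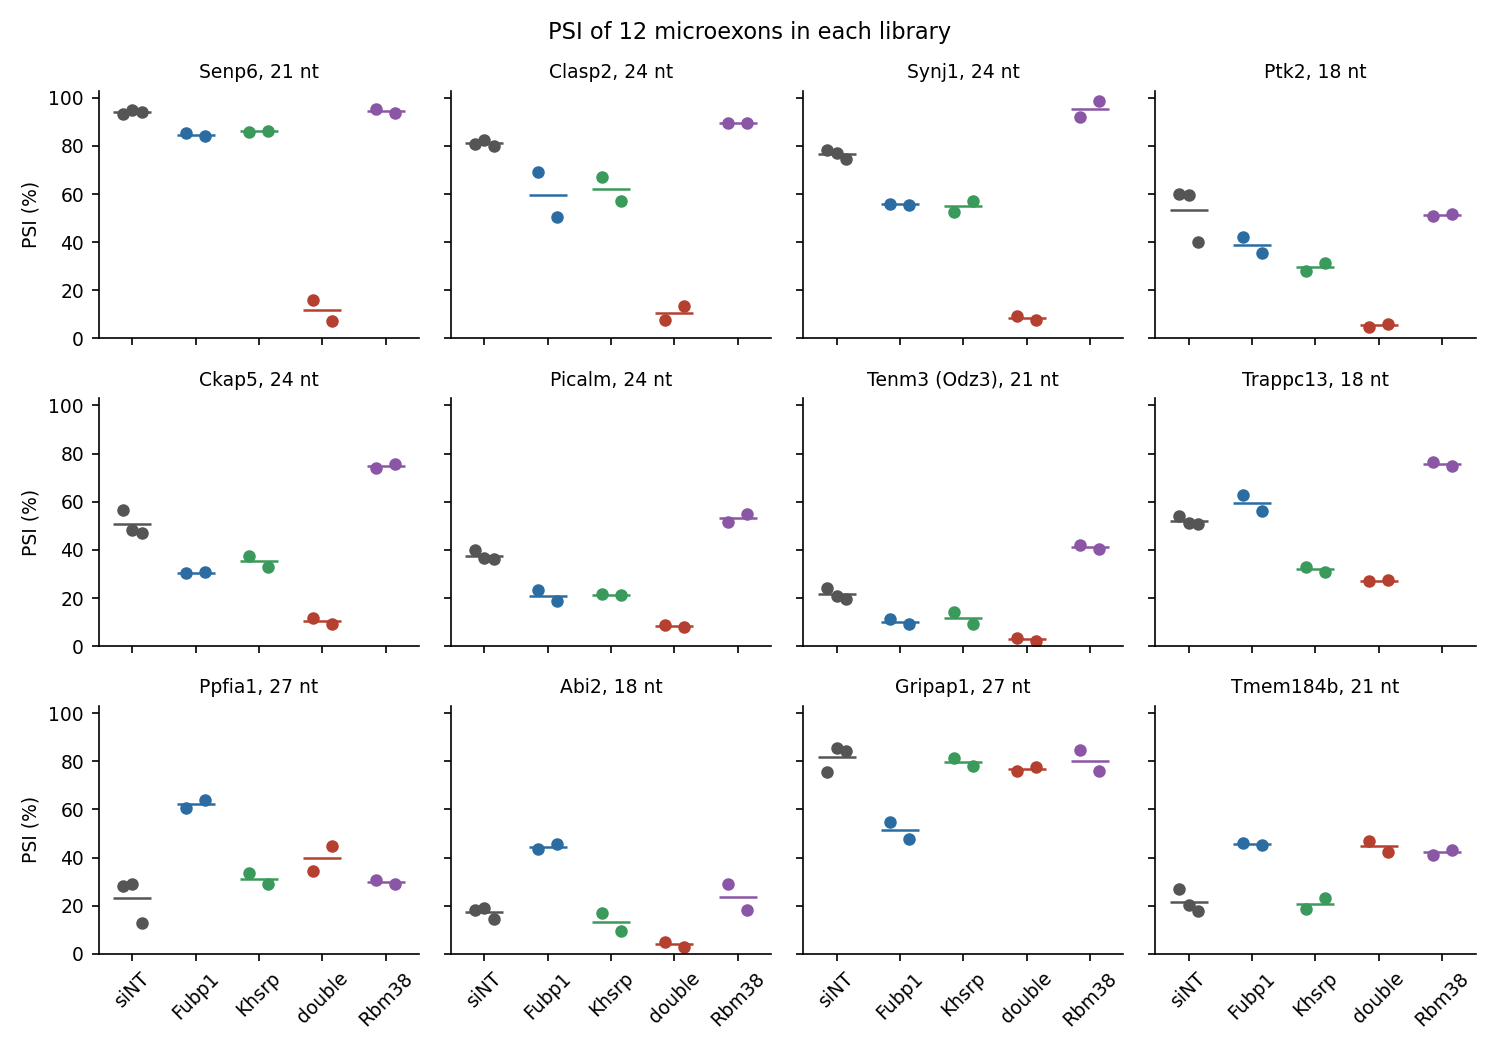
PSI (y axis, percent) of 12 microexons in each library (points) with group means (lines), for siNT (3 libraries) and the 4 knockdowns (2 libraries each). Upper and middle rows show exons lower in the double knockdown, several of them higher after Rbm38 knockdown. The lower row shows exons of Ppfia1, Abi2, Gripap1 and Tmem184b, which moved after Fubp1 knockdown by 39.0, 27.3, -30.4 and 24.1 points.

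Teneurins are adhesion receptors across the synapse. The 2 microexons of Odz3 (Tenm3) stood near each other in every group. The 21 nt exon was at 24.3, 20.9 and 19.6% in siNT, 11.2 and 9.3% after Fubp1 knockdown, 3.5 and 2.1% in the double and 41.9 and 40.5% after Rbm38 knockdown, with differences of -11.4, -18.8 and 19.6 points (limma adjusted p 0.000103, 6.3e-05 and 7.75e-05). The 27 nt exon was at 26.6, 26.0 and 22.2% in siNT, 12.9 and 9.8% after Fubp1 knockdown, 2.7 and 1.7% in the double and 39.4 and 39.2% after Rbm38 knockdown, with differences of -13.6, -22.7 and 14.4 points (limma adjusted p 0.00012, 3.06e-05 and 0.00296). Khsrp knockdown lay between siNT and the double for both, at 14.0 and 9.3% and at 19 and 14.9%, differences under 10 points. With a library-set term the Rbm38 rise of the 27 nt exon missed the threshold (17.1 points, adjusted p 0.052).

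CD47 is an integrin-associated receptor, and its 25 nt exon is not a multiple of 3. It was at 67.3, 60.4 and 71.1% in siNT, 22.8 and 20.6% in the double and 85.0 and 85.6% after Rbm38 knockdown, a fall of 44.5 and a rise of 19.1 points (limma adjusted p 2.54e-05 and 0.0274), the rise being 14.2 points with a library-set term (adjusted p 0.316). Mllt4, afadin, which ties nectins to actin, has a 21 nt exon at 61.0, 59.5 and 72.9% in siNT, 38.2 and 36.3% after Khsrp knockdown and 36.0 and 35.8% in the double. This was the largest called fall after Khsrp knockdown, 27.2 points (limma adjusted p 0.00756), and the double did not differ from Khsrp knockdown beyond the spread (-1.3 points, adjusted p 0.887). A 24 nt exon of the axon guidance ligand Slit2 was at 29.0, 20.7 and 35.8% in siNT, 50.6 and 49.7% after Fubp1 knockdown, 59.2 and 55.5% in the double and 49.5 and 49.2% after Rbm38 knockdown. It rose by 21.6, 28.9 and 20.8 points (limma adjusted p 0.000502, 0.00762 and 0.00523), the Rbm38 rise being 13.6 points with a library-set term (adjusted p 0.42). Of 13 tested exons in the adhesion, synapse and receptor list, Fubp1 knockdown lowered 2, the double lowered 3 and Rbm38 knockdown raised 2.

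Focal adhesion kinase (Ptk2) has 2 microexons among the called exons. The 18 nt exon was at 59.9, 59.4 and 40.2% in siNT, with siNT C apart from the other libraries. It was at 42.1 and 35.4% after Fubp1 knockdown, 28 and 31.4% after Khsrp knockdown and 4.7 and 6.2% in the double, falls of 14.5, 23.5 and 47.7 points (limma adjusted p 0.0383, 0.0269 and 1.34e-05). With a library-set term the Khsrp difference was -10.5 points (adjusted p 0.468). The 21 nt exon was at 98.8, 98.1 and 98.7% in siNT, 96.7 to 98.4% in the single knockdowns and 73.3 and 73.8% in the double, a fall of 25 points (limma adjusted p 1.62e-07).

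Genes of other signalling enzymes also had called exons. An 18 nt exon of the phosphoinositide phosphatase gene Inpp4a was at 29.1, 43.8 and 46.7% in siNT and 5.5 and 13.3% after Fubp1 knockdown, a fall of 30.4 points (limma adjusted p 0.0123). In the double it fell by 36.7 points (0.0222), and library B had no inclusion among 58 reads, which allows a PSI of up to 5.2% from counting error alone. A 24 nt exon of the kinase gene Tnik fell from 55.5% ± 5.4 to 16.7% ± 1.2 in the double. Mast2 encodes a microtubule-associated kinase, and its 21 nt exon was at 36.3, 44.3 and 41.0% in siNT, 12.7 and 16.2% in the double and 64.4 and 61.4% after Rbm38 knockdown, a fall of 26.1 and a rise of 22.4 points (limma adjusted p 8.03e-05 and 0.00237). The polarity kinase gene Mark3 has a 27 nt exon that rose from 23.5% ± 2.0 to 41.7% ± 0.7 after Rbm38 knockdown (limma adjusted p 0.0063). The Rbm38 rises of Mast2 and Mark3 missed the threshold with a library-set term (21.9 and 20 points, adjusted p 0.123 and 0.0821). Of 19 tested exons of the kinase, phosphatase and signalling list, the double lowered 6, Fubp1 knockdown raised 1 and lowered 2, Khsrp knockdown lowered 1 and Rbm38 knockdown raised 1.

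In the list of chromatin, transcription and RNA genes, with 21 tested exons, the double lowered 6, Fubp1 knockdown raised 1 and lowered 2 and Rbm38 knockdown raised 3. EIF4G1 is the scaffold of the cap-binding complex that starts translation. Its 21 nt exon was at 43.7, 37.2 and 36.5% in siNT, 57.2 and 50.5% after Fubp1 knockdown and 60.3 and 58.7% after Rbm38 knockdown, rises of 14.7 and 20.4 points (limma adjusted p 0.00298 and 0.00191). Khsrp knockdown had 31.2 and 25% and the double 31.4 and 33.3%, neither past the test (adjusted p 0.128 and 0.181). The double was 21.5 points below Fubp1 knockdown (adjusted p 0.00137). The equal-length exon of Eif4g3, identical to it at 16 of 21 positions, was at 2.4% ± 0.9 in siNT and at or below 4.6% in every library.

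The corepressor gene Ncor1 has a 27 nt exon at 53.6, 54.6 and 59.4% in siNT, 42.3 and 40.6% after Fubp1 knockdown, 49.9 and 51.9% after Khsrp knockdown, 35.6 and 37.1% in the double and 72.4 and 71.7% after Rbm38 knockdown. The differences of -14.4, -19.5 and 16.2 points in Fubp1, double and Rbm38 knockdown passed (limma adjusted p 0.000398, 0.000149 and 0.00112), the Rbm38 rise being 12.7 points with a library-set term (adjusted p 0.191). Mef2a, a transcription factor of muscle and neurons, has a 24 nt exon at 17.5, 14.7 and 15.4% in siNT and 26.6 and 25.2% after Rbm38 knockdown, a rise of 10.0 points (limma adjusted p 0.0198, and 10.5 points with 0.45 under a library-set term). In the double it fell by 14.1 points, with no inclusion among 174 reads in library B, which allows up to 1.7%. An 18 nt exon of Med23, a Mediator subunit, fell from 52.1% ± 2.0 to 38.8% ± 0.8 after Fubp1 knockdown and 28.2% ± 5.0 in the double, and was at 52.4% ± 0.6 after Khsrp knockdown.

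The exons of Cpeb2 and Cpeb4, which encode binders of the cytoplasmic polyadenylation element, were set side by side after their values were seen, as were the other paralogs. They differ at 3 of 24 positions. The Cpeb2 exon was at 94.3, 90.4 and 93.6% in siNT, 91.2 and 94.3% after Khsrp knockdown and 69.5 and 58.0% in the double. The Cpeb4 exon was at 38.4, 34.8 and 35.4% in siNT, 23.8 and 18.8% after Khsrp knockdown and 14.1 and 11.5% in the double. Both fell in the double, by 29.0 and 23.4 points (limma adjusted p 0.000572 and 0.00198), from very different starting levels. Of the Fry and Fryl exons, in genes related to the fly gene furry, that of Fry fell from 32.5% ± 1.7 to 15% in both Fubp1 libraries (limma adjusted p 0.0274, and -16.9 points with 0.0535 under a library-set term) and was at 16.6% ± 5.6 in the double. That of Fryl was at 78.0% ± 2.3 in siNT and 68.3% ± 0.3 after Fubp1 knockdown and fell to 36.8% ± 0.5 in the double (limma adjusted p 0.00101).

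The largest change of any tested microexon was in Senp6, which is in none of the gene lists and encodes a protease that trims SUMO chains. Its 21 nt exon, under the event number with more reads, was at 93.3, 94.9 and 94.0% in siNT, 85.3 and 83.9% after Fubp1 knockdown, 86.0 and 86.1% after Khsrp knockdown, 16.1 and 7.3% in the double and 95.3 and 93.8% after Rbm38 knockdown. Both single knockdowns were below siNT by less than 10 points. In the double it fell by 82.4 points (limma adjusted p 7.34e-09), and by 83.7 points under its other event number. A 21 nt exon of Tmem184b, which encodes a membrane protein, moved up in 3 knockdowns. It was at 26.9, 20.3 and 18% in siNT and 18.6 and 23.1% after Khsrp knockdown, against 46.2 and 45.4% (Fubp1), 47.0 and 42.3% (double) and 41.3 and 43.3% (Rbm38). The rises were 24.1, 22.9 and 20.5 points (limma adjusted p 6.75e-05, 7.78e-05 and 0.00564), the Rbm38 rise being 24.3 points with a library-set term (adjusted p 0.0821).

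The other called rises after Fubp1 knockdown were in Ppp6r3 (15.2 points, from 6.2% ± 2.1), Plekha5 (13.9), Eprs (12.2) and Fam168a (11 points). The other falls were in Cspp1 (21.9 points, from 31.8% ± 5.0), Trrap (fell by 19.1 points, from 24.8% ± 5.4) and Gnas (fell by 15.8, from 55.2% ± 7.1). TRRAP is a scaffold of histone acetyltransferase complexes and EPRS charges tRNAs with glutamate and proline. In Rbm38 knockdown the remaining called exon was a 25 nt exon of Hira, a histone chaperone, which rose by 10.7 points from 12.5% ± 2.5 (limma adjusted p 0.024, and 8.6 points with 0.393 under a library-set term) and by 20.2 points in the double. After Khsrp knockdown an 18 nt exon of Tbc1d24, a synaptic protein, was at 53.2% ± 0.6 against 79.8% ± 1.0, but had as few as 12 reads in a library and was not called.

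The double also lowered exons of Slc38a10 (a transporter, 52.5% ± 8.2 to 15.3% ± 3.4), Ddhd1 (a phospholipase, 54.6% ± 4.8 to 19.8% ± 0.6), Trim9 (a neuronal ubiquitin ligase, 48.5% ± 10.6 to 13.0% ± 9.7) and Pts (an enzyme of tetrahydrobiopterin synthesis, 98.8% ± 0.5 to 67.3% ± 6.6). The calls of Trim9 and Pts missed the threshold with a library-set term (-47.6 and -31.9 points, adjusted p 0.0735 and 0.0541). Among the 68 exons lowered in the double, 37 began between 20 and 80 in siNT and 20 began over 90. Their median went from 55.7% to 20.8%, 17 ended under 10%, and 24 fell by 30 points or more. The 6 that rose were those of Slit2, Plekha5, Tmem184b, 1110034B05Rik (Tyw5), Hira and Mast3. A 24 nt exon of Gon4l and one of 5830417I10Rik, with identical sequences, both fell in the double, from 53.6% ± 4.2 to 28.7% ± 1.7 and from 52.5% ± 6.6 to 29.2 and 30.9%. Their reads cannot be assigned with certainty to either copy.

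Compared with Fubp1 knockdown, the double changed 49 microexons (16.4%, against 4.21% of all events), with 4 higher (1.06%) and 45 lower (3.15%). Compared with Khsrp knockdown it changed 45 (15.1%, against 4.63%), with 4 higher (0.998%) and 41 lower (3.63%). Leaving out double library A gave 32 of the first kind, and leaving out Khsrp A gave 24 of the second. Senp6 led both, 72.9 points below Fubp1 knockdown and 74.3 below Khsrp knockdown (limma adjusted p 1.19e-07 and 4.16e-07), followed by the exons of Clasp2 and Synj1. A library-set term, which bears on the comparison with Fubp1 knockdown since that group is in the other set, gave 18 calls there and ended that of Clasp2 (-47.2 points, adjusted p 0.0998).

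The double knockdown was also compared with the sum of the 2 single effects, as a contrast on the log2 odds scale, which asks whether knocking down both differs from adding the 2 single knockdowns. It departed in 8 tested microexons at 7 positions (2.68%, against 0.472% of all events), with 0 higher (0.108%) and 8 lower (0.364%), and 18 were higher and 54 lower at an unadjusted p under 0.05 in limma. Among exons at 20 to 80 in siNT, 1 of 79 microexons departed (1.27%), against 1.25% of all tested events in that range. For Senp6 the single effects were -9.5 and -8.0 points, which sum to -17.5, and the double was -82.4, a departure of -64.8 points (-3.8 ± 0.48 SE in log2 odds, limma adjusted p 0.00155). It kept its call in all 11 fits that left out a library.

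The other departures were of 3 kinds. Exons of Fip1l1 (a polyadenylation factor), Zdhhc2 (a palmitoyltransferase) and the 21 nt exon of Ptk2 had single effects within 4.4 points of 0 and fell by 35.7, 31.8 and 25 points in the double (limma adjusted p of the departure 0.0165, 0.0126 and 0.023). The Nckap1 exon had effects of -15.3 points after Khsrp knockdown, -0.2 after Fubp1 knockdown and -40.5 in the double (0.0161). For Abi2 and Dctn4 the sum of the single effects was a rise of 23.2 and 29.1 points, while the double was -13.3 and 0.8 points from siNT (0.00889 and 0.00493). Without weights none of the 8 departures passed (55 exons at an unadjusted p under 0.05, adjusted p 0.248 to 0.396 for the 8). Leaving out Fubp1 A, Fubp1 B, Khsrp A, Khsrp B, double A or double B gave 4, 5, 2, 5, 4 or 5 departures.

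**Figure D5:**
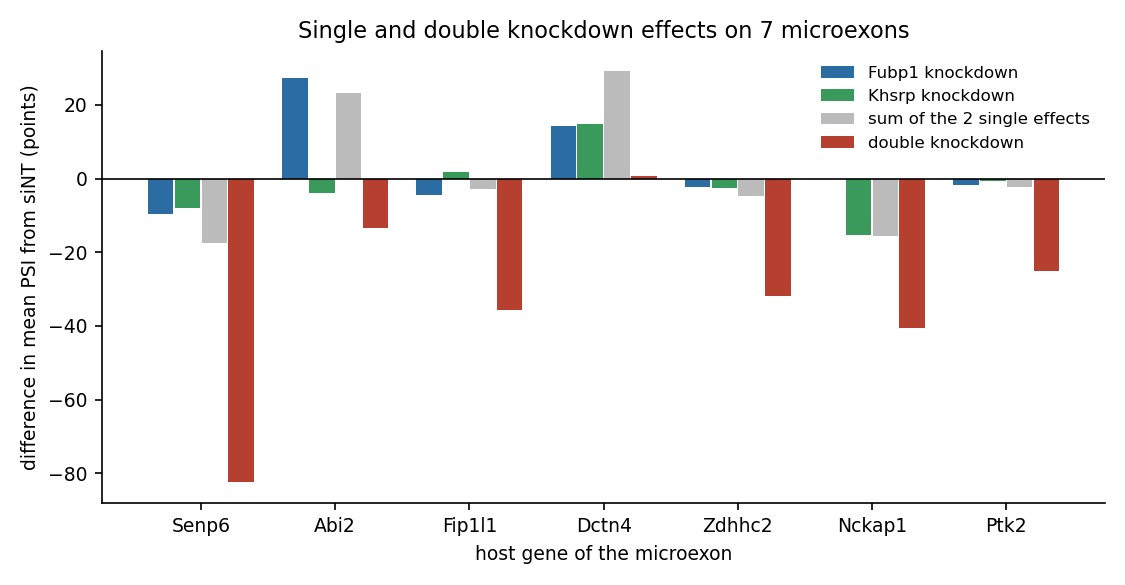
Difference in mean PSI from siNT (y axis, points) for the 7 microexons whose double knockdown departed from the sum of the single effects. Bars give Fubp1 knockdown, Khsrp knockdown, their sum and the double knockdown. Senp6 fell by 82.4 points in the double against a sum of -17.5, and Abi2 has a sum above 0 and a double below it.

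Called exons differed from the rest in length and base content. Of the 86 microexons called in at least 1 knockdown, in 81 genes, 74 (86.0%) had a length that is a multiple of 3, against 141 of the 212 tested but not called (66.5%). All 29 called after Fubp1 knockdown and all 9 called after Khsrp knockdown were multiples of 3, and the double had 62 of 74. Among exons at 20 to 80 in siNT the shares were 41 of 45 called exons (91.1%) and 25 of 34 others (73.5%). The median GC content was 44.4% in called exons and 48.0% in the others, from the 82 and 172 with a GENCODE match. The introns before and after the exon had medians of 1887 and 2133.5 nt in called exons and 1409 and 1340.5 nt in the others. Among exons at 20 to 80 in siNT the introns were nearer in length, 2090 and 2168 nt against 1920 and 1925 nt, and GC content was 44.4% against 51.9%. These are descriptions, and the levels of the 2 sets also differ, with median siNT PSI of 52.3% and 37.2%. Host genes of called exons had a median of 33.4 RPKM against 18.9, or 34 against 10.8 among exons at 20 to 80, and a call depends on reads.

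Host gene levels are from the authors' deposited table, with 1 RPKM per group and no replicate values, and in these bulk samples fewer cells of a type and less RNA per cell cannot be told apart. Of 489 host genes with a test, 39.5% had the authors' FDR under 0.05 after Fubp1 knockdown, against 22.5% of all genes. The shares were 17.2% against 8.16% after Khsrp knockdown, 45.8% against 26.8% in the double and 25.2% against 15% after Rbm38 knockdown. These shares are not matched for level. Hosts had to pass a read minimum and stood at 1.49 RPKM or more in siNT. All genes include ones near 0, such as Col1a2 at 0.02 RPKM. Of the 69 genes with a called exon in the double, 28 were lower and 5 higher in level, against 150 and 74 of all 489 hosts. Of the 28 with a called exon after Fubp1 knockdown, 3 were lower and 7 higher, against 68 and 125 of the 489. Of the 16 after Rbm38 knockdown, 3 were lower and 1 higher, against 79 and 44 of the 489.

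Large exon changes came with and without a change in host level. In the authors' deposited table Senp6 was at 54.87 RPKM in siNT and 47.21 in the double (FDR 0.00242), and Snx14 was at 12.49 and 9.88 (FDR 0.219). Synj1 was at 23.31 and 11.61 RPKM (FDR 1.79e-13), Clasp2 at 35.95 and 17.66 (FDR 2.86e-10) and Nckap1 at 133.67 and 62.66 (FDR 1.02e-11). Slit2, whose exon rose in the double, was at 33.96 and 13.28 RPKM (FDR 2.78e-26), and Daam1, whose exon fell, at 9.02 and 16.24 (FDR 1.19e-08). Whether a host's level bears on its exon was not tested.

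Genes known to regulate neuronal microexons were read from the same deposited table, from a list of 22. After Fubp1 knockdown 3 were higher and 9 lower by the authors' FDR, after Khsrp knockdown 0 and 4, in the double 0 and 11, and after Rbm38 knockdown 1 and 7, where 22.5%, 8.16%, 26.8% and 15% of all genes passed. Those shares of all genes are again not matched for level. Srrm4, the main activator of microexons in neurons, was at 10.96 RPKM in siNT, 14.75 after Fubp1 knockdown (FDR 0.0721), 9.47 after Khsrp knockdown (FDR 0.381), 7.58 in the double (FDR 0.0436) and 8.79 after Rbm38 knockdown (FDR 0.151). Rbfox1, a splicing factor whose effect depends on its position, was at 4.54 RPKM in siNT, 1.06 after Fubp1 knockdown and 0.59 in the double (FDR 3.78e-17 and 2.5e-28). Ptbp2, the neuronal polypyrimidine-tract repressor, was at 104.17 RPKM in siNT, 73.66 after Fubp1 knockdown, 52.82 after Khsrp knockdown, 43.29 in the double and 72.73 after Rbm38 knockdown (FDR 1.14e-07, 3.59e-10, 1.37e-21 and 0.044). Qk and Ptbp1 were lower after Rbm38 knockdown, at 32.07 against 56.61 and 246.52 against 396.22 RPKM (FDR 0.00222 and 0.000927). The part of any of these in the PSI differences was not tested.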

How the data were processed

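RNA-seq of poly(A) RNA covers 11 libraries in 5 groups. The deposited splicing table gives PSI in percent per library and, in a text column the authors wrote beside it, inclusion and exclusion reads. PSI recomputed from those reads differed from the deposited value by at most 0.05 points. The table is named for vast-tools, and its version and the genome build of the event coordinates are not given in the sources used here, so positions come from a match of exons to GENCODE vM21. The authors' own table gives a deposited PSI score per group with their True or False call. Their expression table gives RPKM per group with log2 fold changes and p-values (FDR), made with Salmon 0.14.1, edgeR and mm10 per the submitters' processing notes.

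From the reads, log2((inclusion + 0.5)/(exclusion + 0.5)) was fitted with limma 3.58.1 in R 4.3.3 over 11 libraries (6 residual degrees of freedom), weighted by the inverse of the binomial counting variance, and p-values were Benjamini-Hochberg adjusted over 60137 events with 10 or more reads in every library and mean PSI of 1 to 99. The pooled spread lets groups of 2 be tested. The fit was tested on reads simulated with counting error and the same added library variance for every event. Of the same planted changes of 15 points in each knockdown, it recovered 66 to 80 with weights and 26 to 39 without. Real events may vary between libraries in other ways, so this does not decide which fit suits them. The median number of reads per microexon was 114 (double B) to 279 (siNT B). At those depths a PSI near 50 has a 95% Wilson interval of 41.0 to 59.0% or 44.0 to 55.7%, which covers counting error only.

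The microexons, the gene lists and the tests were chosen with earlier results of these data known. Named exons are the called ones (up to 25 by size against siNT, up to 8 in each comparison of the double with single knockdowns or their sum), the deepest 3 per gene list, the 5 nearest a siNT PSI of 50, and those whose siNT libraries ranged over more than 25 points; where fewer than 10 were called, the next largest without overlap filled the list. Paralogs and other exons named past these limits were chosen after their values were seen. Alternatives were other weights, filters and thresholds, terms for library set or replicate letter, leaving out each library and, chosen after seeing the data, siNT C as the only control of its set.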

Additional observations from a re-analysis of the deposited data

Results flagged for a closer look

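The effect of the double knockdown differed from the sum of the 2 single knockdowns in 8 of the 298 tested microexons. That is 2.68%, against 0.472% of all tested events (limma on log2 odds, adjusted over all events). Among exons at 20 to 80 in siNT the shares were 1.27% of microexons and 1.25% of all tested events. In PSI points, which are not the scale of the p-values, the departures were -65.0 and -64.8 for the 2 event numbers of the Senp6 exon, -36.5 for Abi2, -33.0 for Fip1l1, -28.3 for Dctn4, -27.1 for Zdhhc2, -25.1 for Nckap1 and -22.7 for the 21 nt exon of Ptk2. All 8 kept their direction in every alternative in which they were tested. No group has 4 or more libraries, so single outlying libraries were not tested.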

How the results depend on the processing

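Every call against siNT, between double and single knockdowns or against the sum kept its direction in every alternative in which that exon was tested, and no median turned, but counts moved. Without weights limma called 0 microexons after Fubp1, Khsrp or Rbm38 knockdown and 0 departures from the sum, 22 in double against Fubp1 knockdown, and 77 in the double, with 73 of its 74 calls among them. With no filter on mean PSI the counts were 19 (Fubp1), 2 (Khsrp), 4 (Rbm38) and 1 (sum), and at 15 points Fubp1 had 18. A library-set term gave 3 (Khsrp), 5 (Rbm38) and 18 (double against Fubp1 knockdown). Taking siNT C as the only control was chosen after seeing the data. It rests Khsrp and Rbm38 knockdown on the same control library as the library-set term, so it is no separate check. A minus B differences correlated at -0.062 to 0.0577 between groups, so no pairing by replicate letter was seen, though noisy values cannot exclude it. The letter of Fubp1 library B was taken from its description, while its title ends in A. A replicate block gave 29, 14, 79 and 23 calls for Fubp1, Khsrp, double and Rbm38 knockdown and 57, 50 and 10 for the other comparisons. siNT C is the only library with letter C, so the block also takes it out of the comparisons. Leaving out 1 library gave 22 to 29 calls (Fubp1), 2 to 11 (Khsrp), 55 to 76 (double), 9 to 20 (Rbm38), 32 to 53 and 24 to 46 (double against Fubp1 and Khsrp knockdown) and 2 to 10 (sum). Median differences then ran from -0.97 to -0.64 (Fubp1) and -1.2 to -0.89 (Khsrp). With siNT libraries of the same set they were -0.97 and -0.79, and with 20 reads in every library the Khsrp median was -0.89. Depth limits single exons: 29 of the 298 tested had under 20 reads in a library.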

Other observations

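The double knockdown also lowered microexons that the text above does not describe, chosen here after their values were seen. Kinesins had 2 of them. An 18 nt exon of Kif1b was at 95.8, 96.8 and 96.6% in siNT and 76.6 and 77.8% in the double (limma adjusted p 5.77e-06). Kif1c had a 22 nt exon at 39.5% ± 0.7 (SD, n = 3) and 12.7% ± 0.6 (SD, n = 2), with as few as 17 reads in a library. A 21 nt exon of Vti1a, a SNARE protein of endosomes and the Golgi, was at 38.2% ± 6.2 in siNT and 15.4% ± 5.6 in the double. A 24 nt exon of Herc4, a ubiquitin ligase, was at 90.5% ± 2.6 and 68.8% ± 0.3.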
